A study of Homo sapiens with 8 samples.

Results

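ANGPTL4, STC1, STC2 and VEGFA are secreted factors whose genes are known to be induced when cells lack oxygen. They were taken by gene name from the authors' deposited table of translation efficiency, where each of the 4 has 1 row among 12109 transcripts. Translation efficiency is the amount of ribosome footprints relative to the amount of RNA of a transcript. The 4 were selected on gene name with the log2 changes and adjusted p-values of this same comparison already in view, so their values are given as a description.

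The cells were human hepatic stellate cells, which become matrix-producing myofibroblasts when activated in injured liver. The LARP6 knockdown cells received the silencing RNA labelled dsiLARP6 and the control cells the one labelled dsi-control (genotype label WT). Both were grown in DMEM with 10% FBS, and the labels name neither low oxygen nor any other treatment of these libraries. Each condition had 2 RNA-seq and 2 ribosome profiling libraries, 8 in all; the labels call the cells a cell line and do not say whether replicates were separate cultures. The series' design text mentions LARP6 eCLIP with TGFb treatment, which was not analysed here. LARP6 is an RNA-binding protein described as binding a stem-loop around the start codon of type I collagen mRNAs.

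The authors' deposited table is 1 comparison with no value per library, so no value has a spread between replicates, a standard error or a known depth. How precise a value is can be read only from the p-value that the authors give it. For LARP6 itself the authors' deposited table lists a log2 change in efficiency of 0.07 (adjusted p = 0.98). That is a ratio and says nothing of how much LARP6 RNA was lost. Of 12 markers of activated stellate cells 11 were measured, all but DES, and the authors' deposited table calls 7 lower and 1 higher (median log2 change −0.43). The share called was 72.7%, against 2.2% over all transcripts. The markers were chosen with earlier results of these data known, so no weight is put on that share. They also include COL1A1 and COL1A2, whose mRNAs LARP6 is described as binding. The 7 called lower are POSTN (−1.33), ACTA2 (−1.11), COL3A1 (−0.82), COL1A1 (−0.57), PDGFRB (−0.57), LOX (−0.43) and COL1A2 (−0.42), and VIM (0.40) is the one called higher. LOX is counted again below among the secreted HIF targets, and PDGFRB among the VEGF and PDGF ligands and receptors. These markers thus move in the same comparison as the factors described here, and their part in the factors' values was not tested. Of the markers of other liver cells, 2 of 15 for hepatocytes, 2 of 12 for endothelial cells, 2 of 13 for leukocytes and Kupffer cells and 3 of 8 for biliary cells were measured. ALB, PECAM1, PTPRC and EPCAM were not analysed here. Being in the table is not a level of RNA, which the table does not hold.

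When oxygen is plentiful, prolyl hydroxylases mark the alpha subunits of hypoxia-inducible factor (HIF) and the VHL complex has them degraded. In low oxygen the subunits persist, pair with ARNT and switch on genes for glycolysis, vessel growth and matrix remodelling. ANGPTL4 is a secreted inhibitor of lipoprotein lipase and is also a target of the PPAR nuclear receptors. STC1 and STC2 are the stanniocalcins, glycoprotein hormones first known from calcium control in fish, which inhibit the pappalysin proteases that free insulin-like growth factors. VEGFA is the main growth factor of endothelial cells, and stellate cells are one of its sources in the liver.

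The start codon regions are shown first, since that is where LARP6 is described as acting on collagen mRNAs. They come from GENCODE 29 transcripts on GRCh38 whose identifiers end in the digits of the table's row names, and 3 of the 4 factors matched. The row of VEGFA did not match a GENCODE 29 transcript, so no sequence or leader is given for it, and none is printed for STC1. Each window holds 12 bases before the start codon and 18 from its first base on, with the start codon in capitals. The first base of the start codon is at 8364322 on chromosome 19 for ANGPTL4 (plus strand), 173328193 on chromosome 5 for STC2 (minus strand), 50201513 on chromosome 17 for COL1A1 (minus strand) and 94395032 on chromosome 7 for COL1A2 (plus strand).
ANGPTL4: ctacctaagaggATGagcggtgctccgacg
STC2: ataccaagaaccATGtgtgccgagcggctg
COL1A1: tagggtctagacATGttcagctttgtggac
COL1A2: taagtgctagacATGctcagctttgtggat

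The windows of both type I collagen chains are shown for comparison and share the stretch CTAGACATG, whose last 3 bases are the start codon. This stretch stood at the start codon of 4 of 10101 protein-coding transcripts of the table with a leader long enough (0.0396%) and of 0 of the 3 matched factors. The 4 include both collagens, from which the stretch was taken. A stretch this rare would be missing from nearly any 3 transcripts, so its absence says nothing of the factors. The site described for LARP6 is a stem-loop, and whether the factors can form one was not tested. Outside the start codon, the COL1A2 window was identical to that of COL1A1 at 22 of 27 bases. ANGPTL4, STC1 and STC2 were each identical to it at 5 of 27 bases, against a median of 7 over all transcripts. ANGPTL4, STC1 and STC2 all had an A at the third base before the start codon, and 87.0% of all transcripts had an A or G there. The base after the start codon was A in ANGPTL4, C in STC1 and T in STC2. A G stood there in 53.6% of transcripts.

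ANGPTL4 and STC1 rose about as much as each other after LARP6 knockdown, VEGFA lay above 0 without passing the authors' threshold, and STC2 lay slightly below 0. Of the 4 factors, the authors' deposited table has 2 past an adjusted p of 0.05, both higher in knockdown cells. Over all transcripts 2.2% passed in either direction, 1.07% higher and 1.12% lower. The same 2 passed at an adjusted p under 0.01 (1.52% of all transcripts) or 0.10 (2.81%), with a minimum of 2-fold (0.908%), with the first (3.77%) or second (2.82%) of the authors' estimates alone, and over named rows only (2.25%). The estimates share the same libraries and are no independent check of each other. The final p is the larger of theirs, so no call could be lost with either alone, nor at 0.10. All 4 had an unadjusted p under 0.05, as did 10.3% of transcripts. Because results of this comparison were known when the factors were grouped, no weight is put on that count. The table gives only the ratio of footprints to RNA, so more footprints and less RNA cannot be told apart, and in bulk samples neither can fewer cells of a type and less RNA per cell.

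ANGPTL4 (chromosome 19, 8364151 to 8374373, plus strand) had a log2 efficiency of 1.41 in knockdown cells, against −0.86 in control cells. The control value was derived as the knockdown value minus the log2 change of the second of the authors' 2 estimates. Relative to the typical transcript, whose log2 efficiency is close to 0, ANGPTL4 was therefore 2.66 times as efficiently translated in knockdown cells and 0.553 times in control cells. Its efficiency exceeded that of 90.8% of transcripts in knockdown cells and of 21.0% in control cells. The authors' deposited table gives a log2 change of 2.27, or 4.81-fold higher, with an adjusted p of 5.80e-16. By final p it was the 13th of 12109 transcripts.

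STC1 (chromosome 8, 23841915 to 23854807, minus strand) was already efficiently translated in control cells. Its log2 efficiency was 3.24 in knockdown cells, against 0.88 in control cells. It exceeded 98.7% of transcripts in knockdown cells and 80.6% in control cells, and was 162nd of 12109 in knockdown cells. STC1 was thus 5.10-fold higher by the authors' deposited table (log2 change 2.35, adjusted p = 2.84e-10). By final p it was the 24th transcript.

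STC2 (chromosome 5, 173314713 to 173329503, minus strand), the paralogue of STC1, had a middling efficiency in both conditions. The log2 efficiency was −0.02 in knockdown cells and 0.21 in control cells, above 48.7% of transcripts in knockdown cells and 57.7% in control cells. In the authors' deposited table its log2 change was −0.23, with an unadjusted p of 0.00787 and an adjusted p of 0.196. The difference between the 2 stanniocalcins was not tested, since the table has no standard errors.

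VEGFA (gene on chromosome 6, 43770184 to 43786487, plus strand) had a log2 efficiency of −0.03 in knockdown cells and −0.74 in control cells. This placed it above 48.2% of transcripts in knockdown cells and 24.2% in control cells. The authors' deposited table gives it a log2 change of 0.70, a ratio of 1.63, with an unadjusted p of 0.0148 and an adjusted p of 0.272. GENCODE 29 lists 32 transcripts of VEGFA, 26 of them protein-coding, and the table has 1 row for it, so isoforms are not resolved. ANGPTL4 has 11 annotated transcripts, STC1 2 and STC2 5, again with 1 row each. The VEGFA gene overlaps the antisense gene AL136131.3 by 188 bases and ANGPTL4 overlaps RAB11B-AS1 by 1 base. Neither antisense gene was analysed here, and the sources used here do not say whether counting used strand.

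**Figure D1:**
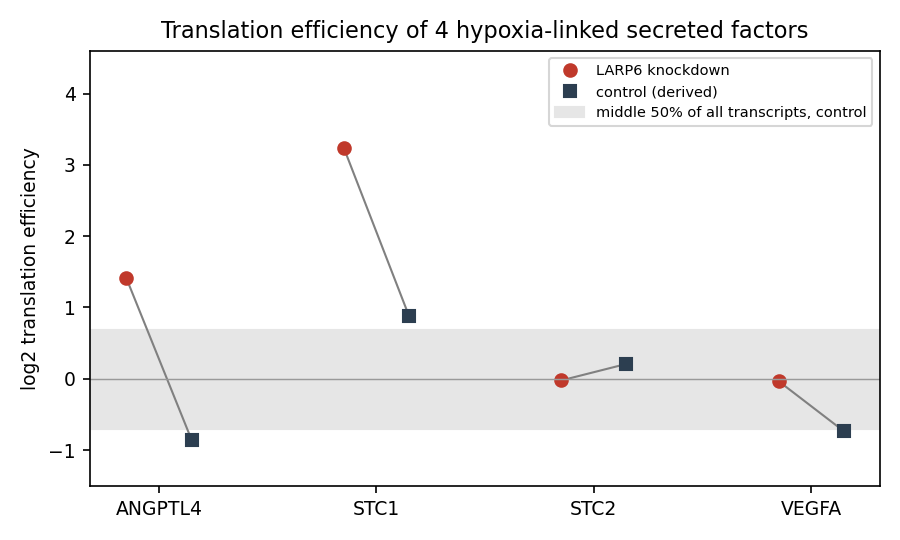
Log2 translation efficiency (y axis) of each of the 4 factors in LARP6 knockdown cells (circles) and control cells (squares, derived), with the grey band marking the middle 50% of all transcripts in control cells; there are no error bars because the table has no value per library. STC1 is highest in both conditions, at 3.24 in knockdown cells and 0.88 in control cells, and ANGPTL4 lies at 1.41 in knockdown cells and −0.86, the lowest of the 4, in control cells.

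In knockdown cells the order of levels was STC1, ANGPTL4, STC2 and VEGFA. In control cells it was STC1, STC2, VEGFA and ANGPTL4. STC2 and VEGFA were 0.01 log2 units apart in knockdown cells, and VEGFA and ANGPTL4 were 0.12 apart in control cells. Whether these neighbours differ beyond replicate spread cannot be read from the table. Efficiencies are ratios within 1 transcript, but whether footprints and RNA were counted over the same stretch is not stated, so the order between genes is approximate.

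Changes of the size seen for ANGPTL4 and STC1 were uncommon, and most transcripts with a ratio that high were not called. Of all transcripts in the authors' deposited table, 76 had an efficiency at least 4-fold higher in knockdown cells, and 12 of these passed the threshold. STC1 was 9th and ANGPTL4 10th by size among the 130 transcripts called higher. Among the 116 of those matched to an annotated protein-coding transcript they were 3rd and 4th. By final p ANGPTL4 was 2nd and STC1 4th of those 116. For comparison, the central 90% of all log2 changes ran between −1.05 and 0.98, and the 99th percentile was 1.77. VEGFA lay within that central range, above 89.7% of transcripts, and STC2 above 29.8%.

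**Figure D2:**
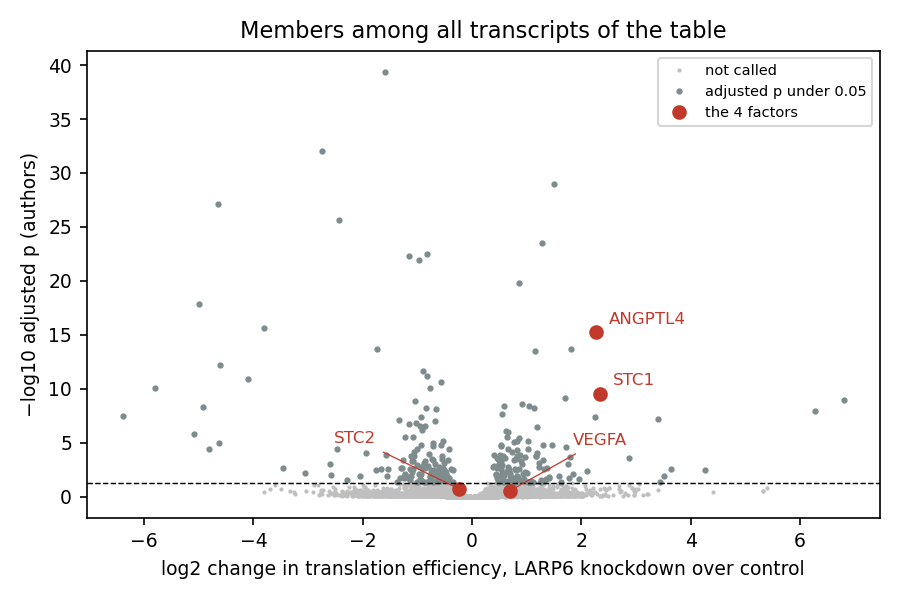
Log2 change in translation efficiency, LARP6 knockdown over control (x axis), against −log10 of the authors' adjusted p (y axis) for 12109 transcripts, with the dashed line at 0.05. ANGPTL4 and STC1 lie at 2.27 and 2.35, well above the line, while STC2 (−0.23) and VEGFA (0.70) lie below it.

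The 2 factors that rose have 5′ leaders of ordinary length without upstream ATG triplets, and STC2 has one of the longest leaders in the table. An upstream ATG can start a short open reading frame, which is known to lower initiation at the main start codon of many mRNAs. The ANGPTL4 leader is 171 bases long, the STC1 leader 284 bases and the STC2 leader 1310 bases, against a median of 187 over 10390 protein-coding transcripts. The STC2 leader is longer than 99.5% of these. It holds 11 ATG triplets, each followed by an in-frame stop codon within the leader, while the ANGPTL4 and STC1 leaders hold 0. At least 1 upstream ATG was found in 49.2% of transcripts. With 3 matched factors and no leader for VEGFA this is a description of annotated transcripts, and other start sites in these cells were not examined. Whether the leaders bear on the changes was not tested.

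The 3′ untranslated region of ANGPTL4 is shorter and richer in GC than those of the stanniocalcins. Its coding sequence is 64.3% GC, above 90.9% of transcripts, and its 3′ untranslated region of 487 bases is 60.8% GC, above 93.6%, while those of STC1 and STC2 are 40.5% and 46.3% GC. The STC1 coding sequence is 52.6% GC and that of STC2 60.2%, against a median of 52.2%. Both stanniocalcin mRNAs end in long 3′ untranslated regions, 2855 bases in STC1 and 3134 in STC2, against a median of 1059. Their coding sequences are short, 744 and 909 bases including the stop codon, and that of ANGPTL4 is 1221 bases, against a median of 1398.

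**Figure D3:**
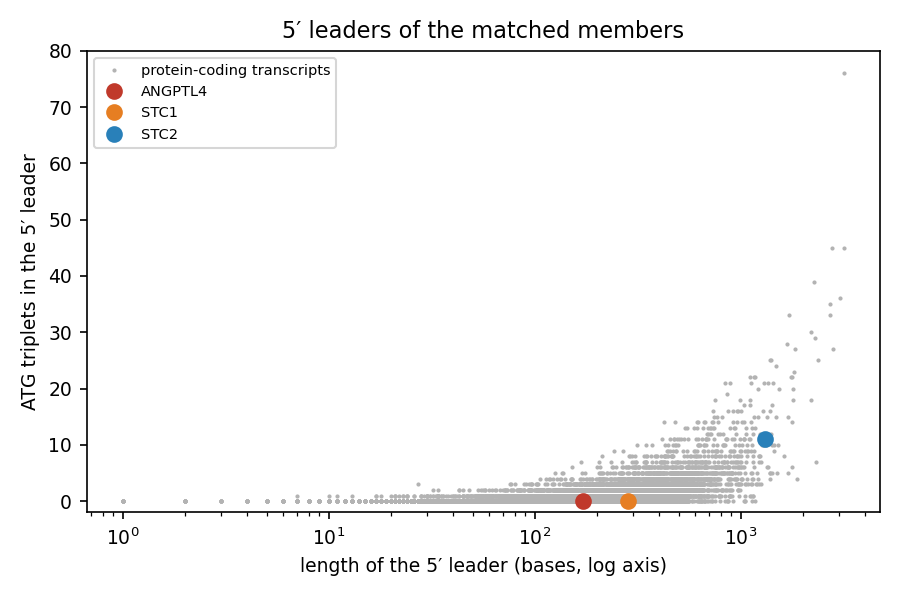
Length of the annotated 5′ leader in bases (x axis, log scale) against the number of ATG triplets in it (y axis) for the protein-coding transcripts of the table with a leader (grey) and the 3 matched factors. STC2, with 1310 bases and 11 triplets, lies far from ANGPTL4 (171 bases) and STC1 (284 bases), which have 0.

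Among the other secreted products of HIF target genes, called changes went in both directions. By the authors' deposited table, 1 rose and 1 fell among the 12 measured of 15 listed genes, with a list median of 0.23 against 0.02 over all transcripts, of which 2.2% were called. The number higher was 3 with the second estimate alone and 0 with a minimum of 2-fold. Those settings called 2.82% and 0.908% of all transcripts in either direction. An unadjusted p under 0.05 was found for 6 of the 12, and for 10.3% of all transcripts. No weight is put on these counts, since the list was chosen with earlier results known. In the authors' deposited table IGFBP3, a carrier of insulin-like growth factors, rose by 0.54 in log2 terms (adjusted p = 2.30e-08). The collagen cross-linking enzyme LOX was the one that fell, and the authors' deposited table lists it at −0.43 (adjusted p = 0.000436). The authors' deposited table lists the vasodilator peptide ADM at a log2 change of 0.52 (adjusted p = 0.274).

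For the oxygen-sensing machinery the count of calls was close to what the share over all transcripts (2.2%) gives, so nothing particular to it is read from the count. Of 14 measured genes out of 17 listed, 0 passed in the authors' deposited table. An unadjusted p under 0.05 was found for 3, and for 10.3% of all transcripts. Under either of the authors' estimates alone 1 passed, against 3.77% (first) and 2.82% (second) of all transcripts. That gene, named after its values were seen, was RBX1, a ubiquitin ligase subunit, at a log2 change of −0.75 (adjusted p = 0.0599) by the authors' deposited table. The list median was 0.03. The authors' deposited table puts HIF1A, the oxygen-regulated subunit, at a log2 change of −0.22 (adjusted p = 0.372). The other alpha subunit EPAS1 had a log2 change of 0.02, its partner ARNT −0.06, the ubiquitin ligase component VHL 0.24 and the oxygen-sensing hydroxylase EGLN1 0.56. Among 47 measured HIF targets that stay in or on the cell, the authors' deposited table has 1 that rose, the glycolytic enzyme PKM by 0.45 (adjusted p = 0.0203). The share called was 2.13%, beside 2.2% over all transcripts, and the median was 0.13. An unadjusted p under 0.05 was found for 11 of the 47, and for 10.3% of all transcripts. Of the 47, 63.8% lay above 0, as did 50.8% of all transcripts. This list too was chosen with earlier results known, so no weight is put on these shares.

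The relatives of VEGFA were too few for a count of calls to be read against the 1.07% called higher and 1.12% called lower over all transcripts. Among 10 measured VEGF and PDGF ligands and receptors the authors' deposited table calls 0 higher and 1 lower. An unadjusted p under 0.05 was found for 5, and for 10.3% of all transcripts. With the first estimate alone 1 was called higher, where 3.77% of all transcripts were called in either direction. The one lower was PDGFRB, a receptor of platelet-derived growth factors, listed by the authors' deposited table at −0.57 on the log2 scale (adjusted p = 0.0196). For VEGFB the authors' deposited table lists a log2 change of 0.85 (adjusted p = 0.315), and for VEGFC −0.03 (adjusted p = 0.989). Its values for the VEGFA co-receptors were 0.39 for NRP1 (adjusted p = 0.209) and 0.56 for NRP2 (adjusted p = 0.831), again from the authors' deposited table. FLT1 and KDR, the signalling receptors of VEGFA, were not analysed here. The list median was 0.44.

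The authors' deposited table shows that ANGPTL2, a secreted relative of ANGPTL4 linked to inflammation, fell by 0.91 in log2 terms (adjusted p = 0.00225). Its log2 efficiency was 0.27 in knockdown cells and 1.18 in control cells, the opposite order to that of ANGPTL4. ANGPTL2 was the 1 called among 6 measured genes of the angiopoietin family and of the lipases ANGPTL4 acts on, out of 17 listed, with a median of −0.04. Over all transcripts 2.2% were called, and 6 genes are too few to read 1 call against that share. LPL, the lipase that ANGPTL4 inhibits, was not analysed here. In the PPAR pathway, which also induces ANGPTL4, 0 of 15 measured genes passed in the authors' deposited table and 1 had an unadjusted p under 0.05, with 0 under either estimate alone. Over all transcripts 10.3% had an unadjusted p under 0.05. The count of calls is close to what the 2.2% gives, so nothing particular to the pathway is read from it. Of the PPAR receptors, the authors' deposited table lists PPARG at 1.64 (adjusted p = 0.551), PPARD at 0.50 (adjusted p = 0.702) and PPARA at 0.38 (adjusted p = 0.968), and the list median was 0.14.

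Members of the insulin-like growth factor axis went both ways. All 8 listed pappalysins, insulin-like growth factors, binding proteins and receptors were measured and lay below 0, as did 47.3% of all transcripts. The authors' deposited table calls 3 of the 8 lower (37.5%), where 1.12% of all transcripts were called lower. An unadjusted p under 0.05 was found for 6, and for 10.3% of all transcripts. This list was chosen with earlier results of these data known, so no weight is put on these counts. The list median was −0.72. The list does not hold every binding protein: IGFBP3 and IGFBP1 were counted with the secreted HIF targets, and lay above 0 in the authors' deposited table, at 0.54 (called higher) and 0.42 (adjusted p = 0.97). In the authors' deposited table PAPPA, the protease that stanniocalcins inhibit, fell by 0.72 (adjusted p = 0.00903). The authors' deposited table has its substrate IGFBP5 at −0.84 (adjusted p = 5.69e-09) and the receptor IGF2R at −0.72 (adjusted p = 0.00701), both falls. IGFBP4, another substrate of PAPPA, is listed in the authors' deposited table at −0.22 (adjusted p = 0.199).

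The integrated stress response and the unfolded protein response, which also induce STC2 and VEGFA, had 1 member higher and 2 lower among 18 measured genes in the authors' deposited table, with a median of −0.34. The share called was 16.7%, against 2.2% over all transcripts (1.07% higher, 1.12% lower). The list was chosen with earlier results of these data known, so no weight is put on that share. The authors' deposited table has the transcription factor ATF4 at −1.73 (adjusted p = 2.05e-14), its target DDIT3 at −1.22 (adjusted p = 0.00736) and the transcription factor CEBPB at 0.57 (adjusted p = 0.00699). Of 9 measured RNA-binding proteins described on VEGFA mRNA, 0 passed in the authors' deposited table, 2 had an unadjusted p under 0.05, and 0 passed under either estimate alone, with a median of −0.02. Over all transcripts 10.3% had an unadjusted p under 0.05. The count of calls is close to what the 2.2% over all transcripts gives, so nothing particular to these proteins is read from it.

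**Figure D4:**
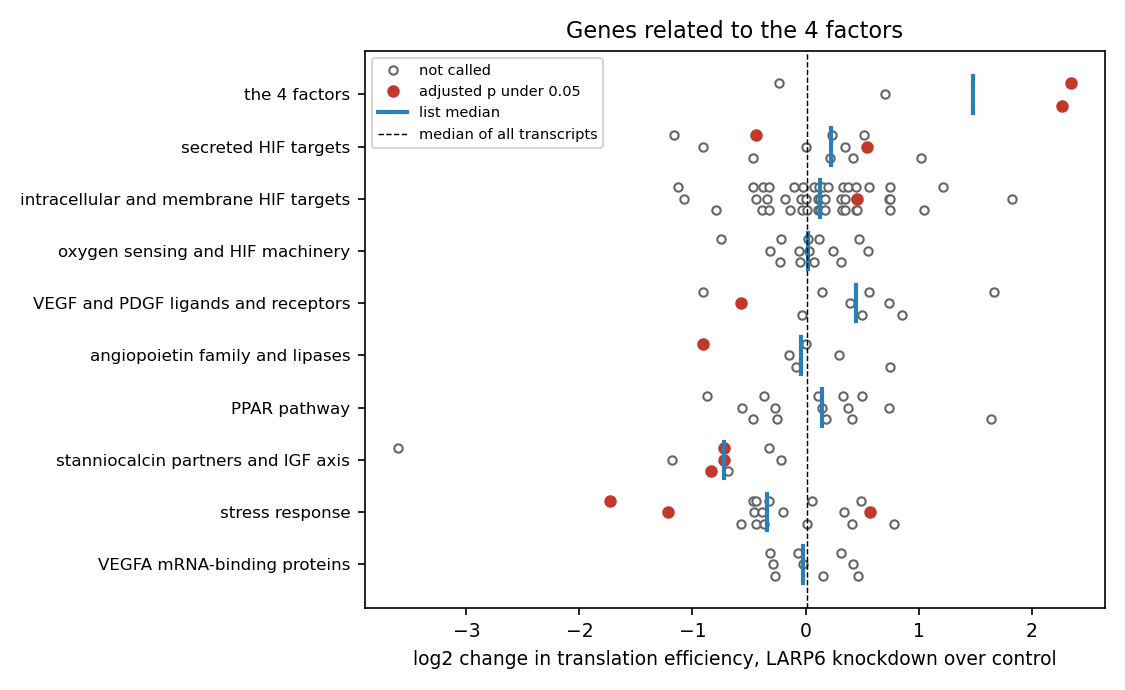
Log2 change in translation efficiency, LARP6 knockdown over control (x axis), for every measured gene of each list (rows), filled where the authors' adjusted p is under 0.05, with the list median (bar) and the median of all transcripts (dashed line). ANGPTL4 and STC1 lie to the right of every other gene plotted, and the 8 genes listed as stanniocalcin partners and IGF axis lie left of 0, a list without IGFBP1 and IGFBP3, which lie right of 0 among the secreted HIF targets.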

How the data were processed

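The authors' deposited table has 12109 transcripts and, per the file headers, log2 changes of translation efficiency from 2 estimates and a final one, the log2 efficiency of the knockdown, and p-values, 1 for each estimate, the final one and its adjusted form. Tools and builds named in the submitters' processing notes are cutadapt, Bowtie, hg38 and GRCh38. The program that compared efficiencies, the RNA selection and the counting were not given in the sources used here. The final p-value equals the larger of the 2 in 12109 rows (relative tolerance 1e-09), and the adjusted p-value matches its Benjamini-Hochberg adjustment. Efficiencies are scaled to the typical transcript (median log2 change 0.02), which hides any change common to all messages.

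Computed here, in Python 3.11.15 with pandas 2.3.3, were control efficiencies, ranks, list counts and medians, and Benjamini-Hochberg adjustment for each estimate alone, checked on simulated data. The planned count models were not run, for want of values per library. Row names carry the last 6 digits of a transcript identifier, matched to GENCODE 29 in 11590 rows; lengths and ATG triplets come from 10390 protein-coding transcripts with a complete reading frame.

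The 4 factors and the lists were chosen with earlier results of these data known. Genes named were the 4 factors, called list members (up to 8 a list) and a set of named partners. ALB, PECAM1, PTPRC, EPCAM, DES, FLT1, KDR and LPL are named only as not analysed here. RBX1, IGFBP1, PPARG and PPARA were named after their values were seen. Depth is unknown, and replicates may be technical.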

Additional observations from a re-analysis of the deposited data

How the results depend on the processing

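ANGPTL4 and STC1 passed, and STC2 and VEGFA did not, under the alternatives run: either estimate alone, an adjusted p under 0.01 or 0.10, a minimum of 2-fold, adjustment over named rows only, and centring on the median. Several of these outcomes were fixed in advance. Centring left the p-values as they were and could change no call. The 0.10 threshold, or either estimate alone, could not drop ANGPTL4 or STC1, since the final p is the larger of the 2. Neither 0.01 nor a minimum of 2-fold could add STC2 or VEGFA. Their log2 changes ranged over 2.25 to 2.27 for ANGPTL4, 2.34 to 2.36 for STC1, −0.25 to −0.23 for STC2 and 0.69 to 0.70 for VEGFA. The adjusted p of VEGFA came closest to passing with the first estimate alone, at 0.0599.

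Over all transcripts the 266 calls (130 higher, 136 lower) became 457 (263 higher) with the first estimate alone and 110 (52 higher, 58 lower) with a minimum of 2-fold, and 86 were higher at an adjusted p under 0.01. Among the related genes, the 11 called (3 higher, 8 lower) became 2 with a minimum of 2-fold, 0 higher and 2 lower. Over all transcripts 2.2% and 0.908% were called at these 2 settings. The number higher was 5 at an adjusted p under 0.10 and 6 with either estimate alone. Those settings called 2.81%, 3.77% (first) and 2.82% (second) of all transcripts in either direction. The lists were chosen with earlier results of these data known, so no weight is put on these counts. List medians kept their sign throughout.

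No paired analysis was possible because values of single libraries are not in the table. Leave-one-out runs, count models, normalizations, filters and pseudocounts were not run for the same reason. The depth behind each ratio is unknown.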
